A study of Mus musculus with 14 samples.

Results

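The 10 genes examined here, Cxcr5, Pdcd1, Il21, Icos, Sh2d1a, Tox, Tox2, Maf, Cd40lg and Ascl2, are markers and effectors of T follicular helper (TFH) cells. They were taken by symbol from the 32285 genes of the count matrices, and each symbol matched 1 row. They were followed in 3 kinds of T cell from tumor nodules: 2 expanded T cell clones, the other T cells of the same 2 nodules, and the T cells of 5 nodules in which a B cell clone was expanded. White nodules came from sick cKO mice (Eif3e fl/fl Cγ1Cre), in which Cre transcribed from the Ig γ1 locus removes Eif3e, which encodes part of the eIF3 complex that starts translation, in activated B cells. The T cells are therefore not the target of the Cre. Each nodule gave 1 single-cell RNA library and 1 antigen receptor (V(D)J) library.

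The T cell nodules were from the liver of mouse 30 (14 months old) and the spleen of mouse 32 (12 months). The B cell nodules were from the liver of mouse 27 (12 months), the lung of mouse 29 (12 months), the spleen of mouse 31 (13 months), the thymus of mouse 33 (16 months), and the lung and thymus of mouse 34 (9 months). The mice were on the C57BL/6J background, and per the study's methods the cKO cross also carried the Rosa26-YFP LSL reporter. The nodule of mouse 27 was described as a secondary tumor, and tumors were passaged in Rag2-/- recipients, which have no T or B cells of their own. The other 6 nodules were primary, and no nodule or tissue of a Cre-negative mouse is compared here. Each mouse gave 1 nodule, so mouse, organ and library cannot be told apart, and all comparisons of nodule kind rest on 2 mice against 5.

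TFH cells are the CD4+ T cells that help B cells in the germinal center. The chemokine receptor CXCR5 brings them into the B cell follicle, PD-1 and ICOS tune their contact with B cells, the adaptor SAP (Sh2d1a) carries signals from SLAM family receptors during that contact, and CD40 ligand and IL-21 deliver help. Ascl2, Maf, Tox and Tox2 encode transcription factors that act in the TFH program beside its central repressor Bcl6. Several of these genes are not exclusive to TFH cells, since Pdcd1 and Tox are also high in chronically stimulated T cells and B cells carry CXCR5.

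Each clone was recognised by its T cell receptor, and the CDR3 sequences of its chains are shown because they decide which cells count as clone cells below. The clone of mouse 30 had a TRBV1/TRBJ2-1 β chain, read in 1973 of 2117 called clone cells, and a TRAV9-2/TRAJ21 α chain, read in 1091. The clone of mouse 32 had a TRBV26/TRBJ2-5 β chain, read in 4794 of 4915 called clone cells, and a TRAV6N-7/TRAJ30 α chain, read in 3738. None of the 4 sequences was shared between the mice.
mouse 30 TRB: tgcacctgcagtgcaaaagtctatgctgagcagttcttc
mouse 30 TRA: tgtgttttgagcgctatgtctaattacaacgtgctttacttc
mouse 32 TRB: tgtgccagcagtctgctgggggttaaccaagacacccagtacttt
mouse 32 TRA: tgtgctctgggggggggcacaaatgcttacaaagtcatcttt

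RNA profiles were kept for 2107 and 4868 clone cells of mice 30 and 32 and for 394 and 449 other T cells, which had a called receptor outside the clone. T-like clusters of the B cell nodules held 573, 5127, 876, 3475 and 884 cells in mice 27, 29, 31, 33 and 34. Levels are UMIs (unique molecular identifiers, counts of captured transcripts) scaled to counts-per-million (CPM) of all UMIs summed over the cells of a population. These sums ran from 982640 UMIs in the other T cells of mouse 30 to 27708297 in the clone of mouse 32, so low genes are least precise in the other T cells of mouse 30. The median cell of a population held from 1189 to 3805 UMIs. Intervals on single values are exact 95% intervals and cover counting error only.

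All 8 T cell markers were detected in each of the 9 populations. A Cd8a or Cd8b1 UMI was found in 4 of 2107 and 43 of 4868 clone cells, in 27 of 394 and 155 of 449 other T cells, and in 134 of 573, 371 of 5127, 92 of 876, 1354 of 3475 and 345 of 884 T cells of B cell nodules. A Cd4 UMI was found in 674 and 2482 clone cells. CD8 RNA was thus nearly absent from the clones, whereas the T cells they are compared with were mixtures. RNA of other cells was also unequal: the 7 neutrophil markers summed to 819 and 1847 CPM in the clones, 143 and 189 CPM in the other T cells, and between 1.47 and 332 CPM in T cells of B cell nodules, and the 8 B cell markers to 21.6 and 101.4 CPM in the clones and 67.1 to 264 CPM in T cells of B cell nodules. Clone cells were taken by receptor alone, and 321 of those of mouse 32 (6.59%) lay outside the T-like clusters and held 25.7% of that clone's UMIs, against 17 cells (0.807%) and 2.15% of the UMIs in mouse 30. Of the 321, 146 and 63 lay in clusters 9 and 20, which carried erythroid genes, and the 6 erythroid markers summed to 389 CPM in the clone of mouse 32, 0.738 CPM in that of mouse 30, 1.02 and 32.4 CPM in the other T cells and at most 14.9 CPM in T cells of B cell nodules. Results with the clone cells outside the T-like clusters left out are given below. The part of neutrophil and erythroid RNA in the remaining cells was not tested. The V gene of the clone's β chain, measured in other T cells that do not use it, stood at 1.66% (1.06 to 2.47) of its clone level in mouse 30 and 2.00% (1.30 to 2.96) in mouse 32, and that of the α chain at 3.11% (1.65 to 5.31) in mouse 30, which measures how much clone RNA the other T cells carried. The α chain gene of mouse 32, TRAV6N-7, could not serve. It had 4 UMIs in the 4868 clone cells, against 21243 of TRBV26, and the reason was not tested. Of 72288 distinct cell barcodes, 3129 occurred in 2 or more libraries.

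Cxcr5, the receptor that guides TFH cells to the follicle (chr9:44511787-44526444 in GRCm38), was the only member with a lower mean in the clones than in both kinds of reference T cell. The clones held 11.8 CPM (mouse 30) and 24.9 CPM (mouse 32). Their other T cells held 68.2 CPM in mouse 30 and 15.9 CPM in mouse 32. T cells of B cell nodules held 26.5, 22.7, 96.6, 18.2 and 41.1 CPM in mice 27, 29, 31, 33 and 34. The groups overlapped, because the clone of mouse 32 lay above its own other T cells and above the B cell nodules of mice 29 and 33. Of the 9 populations, the clone of mouse 30 was the lowest. B-like cells of the B cell nodules carried Cxcr5 as well, and from the level of B cell genes in the T cells, B cell RNA would bring 1.93% of the Cxcr5 UMIs of the T cells of mouse 29 and between 11.6 and 22.7% in the other 4 mice.

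Cxcr5 was sparse in single cells. After each cell was thinned to 1000 UMIs, a Cxcr5 UMI was seen in 1.15% of clone cells of mouse 30 and 2.37% of those of mouse 32, against 3.19 and 2.46% of other T cells and 1.88 to 8.76% of T cells of B cell nodules. In the nodule of mouse 30, monocyte-like and neutrophil-like cells, which should lack the gene, showed 1.10 and 2.04%. The share in the clone of mouse 30 was therefore at the level of background and is not read as expression. In the nodule of mouse 32 none of the monocyte-like cells had a UMI. Without thinning, 60 of the 2107 clone cells of mouse 30 and 537 of the 4868 of mouse 32 had a Cxcr5 UMI.

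Pdcd1, which encodes the inhibitory receptor PD-1 (chr1:94038305-94052553), did not separate the groups. The clone of mouse 30 reached 309 CPM, the highest of the 9 populations, and that of mouse 32 held 125 CPM. The other T cells held 140 and 95.5 CPM, and T cells of B cell nodules 169, 267, 191, 114 and 114 CPM. Within each mouse the clone was above its other T cells, by 2.20-fold (1.85 to 2.64) in mouse 30 and 1.31-fold in mouse 32. Even so, the clone of mouse 32 was below 3 of the 5 B cell nodules.

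Cxcr5 and Pdcd1 together are the usual surface definition of a TFH cell. After thinning, a UMI of both was found in 3 clone cells of mouse 30 (0.15%) and 20 of mouse 32 (0.41%), in 1 other T cell of each nodule (0.27 and 0.22%), and in 2, 15, 8, 8 and 9 T cells of the B cell nodules (0.24 to 1.10%). The clones did not stand out by this pair. Such counts limit only cells with UMIs of both genes, since most transcripts of a cell are not captured.

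Icos, the costimulatory receptor bound by ICOSL on B cells (chr1:60960773-61000322), was not ordered by kind of T cell. The clones held 102 CPM in mouse 30 and 296 CPM in mouse 32. The other T cells held 111 and 219 CPM in the same order, and T cells of B cell nodules 330, 161, 158, 214 and 160 CPM. Both populations of mouse 30 were the lowest of the 9, and the transplanted nodule of mouse 27 was the highest.

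Cd40lg, which encodes the ligand that delivers CD40 help to B cells (chrX:57212143-57224042), was one of 2 members for which both clones were above all 7 other T cell populations. In mice 30 and 32 the clones held 193 and 170 CPM (181 ± 15.8, SD, n = 2). The other T cells held 95.7 and 86.3 CPM (91.0 ± 6.61, n = 2), and T cells of B cell nodules 50.5, 152, 67.5, 9.48 and 20.8 CPM (60.1 ± 56.5, n = 5). The clone was 2.01-fold (1.63 to 2.52) above the other T cells in mouse 30 and 1.97-fold (1.67 to 2.35) in mouse 32, so the ratio was nearly the same in both nodules. Thinned to 1000 UMIs, 17.5 and 16.8% of clone cells had a Cd40lg UMI, against 9.57 and 7.83% of other T cells and 1.60 to 11.4% of T cells of B cell nodules. At most 1.10% of monocyte-like cells had one.

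The order of Cd40lg changed when CD4 cells alone were taken as the reference. When the reference T cells were limited to those with a Cd4 UMI and no Cd8a, Cd8b1 or Foxp3 UMI, Cd40lg stood at 82.3 and 193 CPM in the other T cells of mice 30 and 32 and at 59.2, 191, 85.2, 14.8 and 53.8 CPM in T cells of B cell nodules. At 170 CPM, the clone of mouse 32 was then below its own other T cells and below the B cell nodule of mouse 29. Limited to T-like clusters, a choice made after seeing the data, the clones held 196 and 215 CPM, above the 7 gated populations. The gate left 125 and 56 other T cells. The 56 cells of mouse 32 held 191611 UMIs of all genes. Counting error does not resolve their 193 CPM from the 170 or 196 CPM of a clone.

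Il21, the cytokine by which TFH cells drive germinal center and plasma cell differentiation (chr3:37222759-37232636), was above every B cell nodule in both clones. The clones held 76.0 CPM (mouse 30) and 24.7 CPM (mouse 32), against 21.5, 6.6, 5.82, 13.5 and 11.4 CPM in T cells of B cell nodules. The 21.5 CPM of mouse 27 came from 26 UMIs in 12 cells, so counting error does not resolve 24.7 CPM from it. The clones' neighbors, the other T cells of the same nodules, held 127 CPM in mouse 30 and 8.57 CPM in mouse 32. The clone was thus below its neighbors in mouse 30, at 0.60-fold (0.49 to 0.74), and above them in mouse 32, at 2.88-fold (1.71 to 5.30). When T cells of B cell nodules were limited to Cd4-gated cells, they held 38.0, 16.2, 2.94, 21.7 and 27.6 CPM, and the clone of mouse 32 no longer lay above all of them.

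Il21 UMIs sat in few cells. In the clone of mouse 30, 412 UMIs came from 197 of 2107 cells, with at most 15 in 1 cell, and in the clone of mouse 32, 684 UMIs came from 372 of 4868 cells. The 125 UMIs of the other T cells of mouse 30 came from 48 of 394 cells, 25 of them from 1 cell, and the 14 UMIs of the other T cells of mouse 32 came from 6 cells, 8 of them from 1 cell. The Il21 level of the other T cells therefore rested on a small number of cells in both nodules. No thinned monocyte-like cell had an Il21 UMI in any library.

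Sh2d1a, which encodes the adaptor SAP (chrX:42502565-42522097), was alike in the populations of 1 mouse. Both populations of mouse 30 were high, with 666 CPM for the clone and 592 CPM for the other T cells, and both of mouse 32 were low, at 153 and 124 CPM. T cells of B cell nodules lay between, at 324, 175, 372, 249 and 303 CPM. Within a mouse the clone exceeded the other T cells by 1.12-fold (1.03 to 1.23) in mouse 30 and 1.23-fold in mouse 32.

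Tox2, which encodes an HMG-box factor of the TOX family (chr2:163203058-163324172), was the other member for which both clones were above all 7 other populations. With 299 CPM (mouse 30) and 310 CPM (mouse 32), the clones themselves were nearly equal (305 ± 7.18, SD, n = 2). Among the other T cells it was 133 CPM in mouse 30 and 26.9 CPM in mouse 32 (80.1 ± 75.2, n = 2). T cells of B cell nodules held 123, 88.8, 93.1, 57.3 and 162 CPM (105 ± 39.4, n = 5). The highest of the 7, the T cells of mouse 34, did not reach either clone. The order held when the reference was limited to Cd4-gated cells, which held 141 and 15.7 CPM in the T cell nodules and 154, 153, 94.0, 74.0 and 248 CPM in the B cell nodules.

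The same order was seen in the share of cells. After thinning, 23.6% of clone cells of mouse 30 and 23.5% of mouse 32 had a Tox2 UMI, against 12.0 and 3.80% of other T cells and 5.60 to 13.0% of T cells of B cell nodules. Monocyte-like cells showed at most 2.38%. B-like cells of the B cell nodules showed 0.52 to 5.79%, and in mouse 33 their 5.79% was not below the 5.60% of the T cells, so the T cell share there was at the B cell level.

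Tox, the founding member of the same family (chr4:6686353-6991557), was higher in the clone than in the other T cells of each mouse but did not separate the clones from the B cell nodules. The clones held 1871 CPM (mouse 30) and 712 CPM (mouse 32), with 1207 and 436 CPM in their other T cells. The within-mouse ratio was 1.55-fold (1.46 to 1.65) in mouse 30 and 1.63-fold in mouse 32. T cells of B cell nodules held 773, 1370, 1164, 552 and 771 CPM, and the clone of mouse 32 was below 4 of the 5. After thinning, Tox UMIs were found in 2.09 to 35.9% of B-like cells of the B cell nodules, so Tox was not limited to T cells there.

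Maf, which encodes c-Maf, a factor that drives Il21 and Il4 in helper cells (chr8:115703253-115706894), was above every B cell nodule in both clones. It stood at 591 and 504 CPM in the clones and at 315, 433, 368, 153 and 241 CPM in T cells of B cell nodules. The clones' neighbors held 765 CPM in mouse 30 and 354 CPM in mouse 32. The clone was below its neighbors in mouse 30, at 0.77-fold (0.71 to 0.84), and above them in mouse 32, at 1.42-fold (1.31 to 1.55). Cd4-gated T cells of B cell nodules held 361, 534, 496, 263 and 403 CPM, and the clone of mouse 32 was then below those of mouse 29. Limited to T-like clusters, the clones held 599 and 638 CPM, above all of these.

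Ascl2, a basic helix-loop-helix factor that induces Cxcr5 early in TFH differentiation (chr7:142966822-142969264), was close to absent. In mouse 32 the clone held 42 UMIs in 34 of 4868 cells, or 1.52 CPM. In mouse 30 the clone, and in both mice the other T cells, held none, and the T cells of B cell nodules held 0, 1, 1, 1 and 6 UMIs. It was too low to be tested.

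With clone cells limited to T-like clusters, which was chosen after seeing the data, the levels of the clone of mouse 32 were higher for all 10 genes. Cxcr5 stood at 31.2 CPM, above the B cell nodule of mouse 27 as well as those of mice 29 and 33. Icos stood at 377 CPM, above all 5 B cell nodules. Sh2d1a stood at 195 CPM, above the 175 CPM of mouse 29. Tox stood at 898 CPM, below the B cell nodules of mice 29 and 31 only. Pdcd1 stood at 159 CPM, Il21 at 31.9, Tox2 at 391, Maf at 638 and Cd40lg at 215 CPM. In mouse 30, where fewer cells were removed, the 9 members detected in the clone lay between 11.9 CPM (Cxcr5) and 1893 CPM (Tox).

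**Figure D1:**
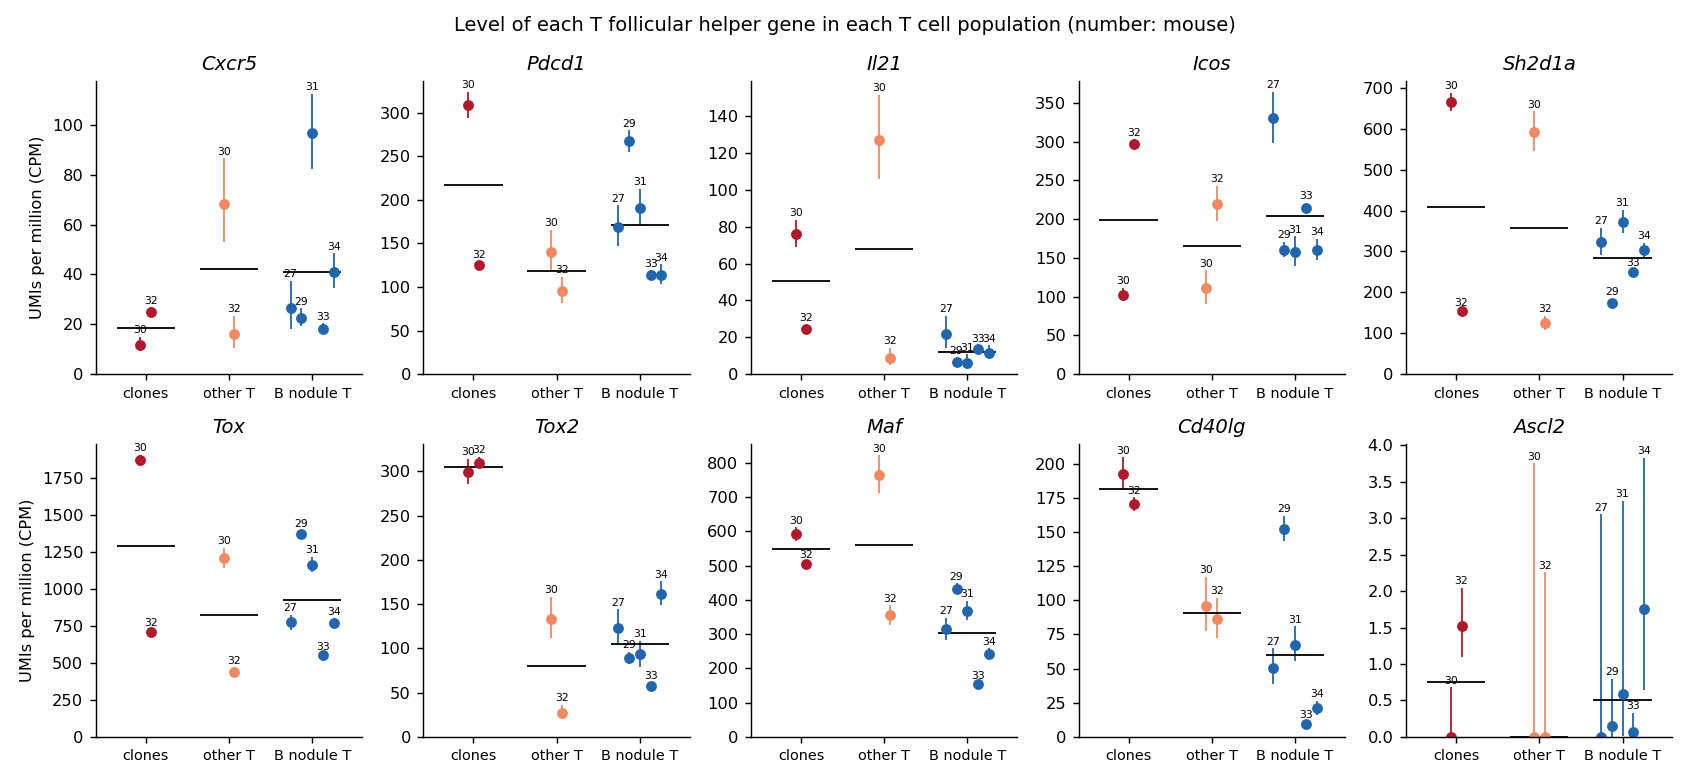
Level of each of the 10 genes in counts-per-million (CPM, y axes start at 0) in the 2 clones, the other T cells of the same 2 nodules and the T cells of 5 B cell nodules. Each point is 1 mouse (numbered) with its exact 95% counting interval, and the black line is the mean of the group. Tox2 and Cd40lg are the panels in which both clones lie above all 7 other points. In the Sh2d1a, Tox, Pdcd1, Il21 and Maf panels both points of mouse 30 lie above both points of mouse 32. In the Icos panel both lie below them.

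The first comparison asks how a clone differs from T cells of other receptors in the same nodule and library. UMIs were summed per mouse and population and compared with edgeR's quasi-likelihood test with mouse as a block (2 mice, 11550 genes). None of the 9 members tested passed an adjusted p of 0.05, and 0.0% of all genes did, while DESeq2 called 243 genes. At an unadjusted p under 0.05, 3 of 9 members (Cd40lg, Tox and Tox2, all higher in the clones) stood against 9.04% of all genes. The log2 fold changes were 0.84 ± 0.22 (SE, adjusted p = 0.394) for Cd40lg, 0.51 ± 0.18 (adjusted p = 0.501) for Tox and 2.15 ± 0.63 (adjusted p = 0.437) for Tox2.

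The other 6 members had log2 fold changes from -1.12 ± 0.85 for Cxcr5 to 0.61 ± 0.29 for Pdcd1, with adjusted p from 0.648 to 0.995. The median of the 9 members was 0.10, beside 0.04 over all genes. The clone was above the other T cells in both mice for 5 of 9 members (Cd40lg, Pdcd1, Sh2d1a, Tox and Tox2), while 42.6% of all genes were, and it was below in both mice for no member, beside 17.3% of all genes. A higher level in both clones was thus common. On the CPM scale the median gene was 0.13 higher on the log2 scale in the clone of mouse 30 and 0.22 higher in that of mouse 32. Relative to that median, Tox2 was higher by 1.04 and 3.30 in mice 30 and 32, Cd40lg by 0.88 and 0.76, Tox by 0.51 and 0.49, Pdcd1 by 1.01 and 0.17, and Sh2d1a by 0.04 and 0.08. Sh2d1a was thus at the level of the median gene in both nodules.

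**Figure D2:**
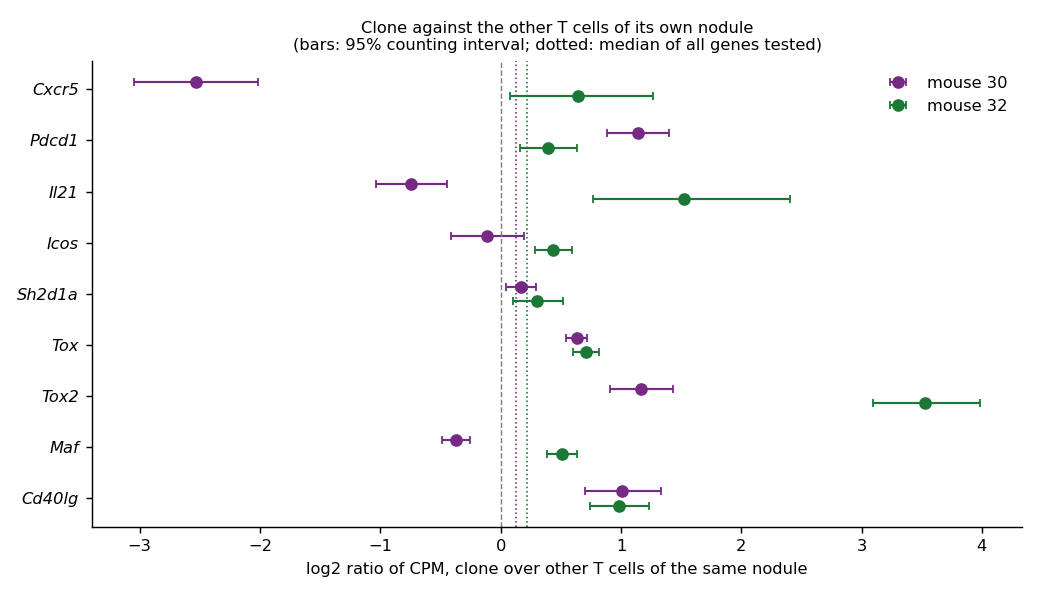
Log2 ratio of CPM, clone over the other T cells of its own nodule (x axis), for 9 members in mouse 30 and mouse 32, with 95% counting intervals. Dotted lines mark the median over all 11550 genes in each mouse. Cd40lg and Tox have nearly equal ratios in both mice, and Cxcr5, Il21 and Maf lie on opposite sides of 0.

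Tox2 was the member whose call depended most on the fit. With DESeq2 on the same sums it was the only one of the 9 that passed (adjusted p = 0.0114), and without the filter on low counts it was 0.0318 in edgeR, whereas without the block it was 0.949, which bounds its range over the alternatives (0.0114 to 0.949). The pairing by mouse comes from the design, since both populations of a mouse share a library. In mouse 30 the clone was 2.25-fold (1.88 to 2.70) above its other T cells and in mouse 32 11.5-fold (8.56 to 15.8), so the direction was shared and the size was not.

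The second comparison asks how the clones differ from T cells that surround a B cell clone (2 mice against 5, 12880 genes, no block possible). None of the 9 members passed an adjusted p of 0.05, and 0.28% of all genes did (0.0699% higher and 0.21% lower in the clones). At an unadjusted p under 0.05 there were 2 members, Il21 and Tox2, beside 9.79% of all genes. The log2 fold change was 1.94 ± 0.55 (SE, adjusted p = 0.272) for Il21 and 1.41 ± 0.33 (adjusted p = 0.181) for Tox2. Cd40lg differed by 1.44 ± 0.82 (adjusted p = 0.651), with T cells of B cell nodules spread from 9.48 to 152 CPM. Maf differed by 0.72 ± 0.37 (adjusted p = 0.604) and Cxcr5 by -1.24 ± 0.67 (adjusted p = 0.629), and the values of Icos, Pdcd1, Tox and Sh2d1a lay between -0.18 and 0.37 with adjusted p from 0.876 to 0.949.

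Both clones were above every B cell nodule for 4 of 9 members (Cd40lg, Il21, Maf and Tox2), beside 11.1% of all genes, and below every B cell nodule for none, beside 4.38%. Cd40lg and Tox2 were above all 7 other populations, beside 7.26% of all genes. With Cd4-gated reference cells and all clone cells, Tox2 alone of the 9 was above every B cell nodule, beside 7.19% of all genes. It was also above all 7 other populations, beside 4.25%. When clone cells of T-like clusters were set against the same gated reference, Cd40lg and Maf were above every B cell nodule too. Cd40lg was then above all 7, at 196 and 215 CPM against at most 193 CPM. The share of all genes with this order was not computed. The 193 CPM came from 56 Cd4-gated other T cells of mouse 32, with 191611 UMIs of all genes. Counting error does not resolve 196 from 193 CPM there. With clone cells of T-like clusters only, the same 4 members were above every B cell nodule, beside 10.3% of all genes, and Cd40lg and Tox2 above all 7, beside 6.61%. The median log2 fold change of the 9 members was 0.37, beside 0.01 over all genes. Tox2 passed under DESeq2 (adjusted p = 0.0118) and without the filter on low counts (adjusted p = 0.0196), and over all alternatives its adjusted p reached 0.689 with Cd4-gated reference cells. Il21 passed without the filter (adjusted p = 0.0169) but not under DESeq2 (adjusted p = 0.0655), and its adjusted p reached 0.858 without mouse 30. The Il21 difference was 0.96 without that mouse, whose clone held more Il21 than the other clone, while that of Tox2 stayed between 1.27 and 1.59 whichever mouse was left out.

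The third comparison asks whether the T cells around a T cell clone differ from those around a B cell clone. None of 9 members passed, beside 0.0% of 10174 genes (4 genes under DESeq2, no member among them), and at an unadjusted p under 0.05 there was 1 member, Il21, beside 2.71%. Its log2 fold change was 2.47 ± 0.78 (SE, adjusted p = 0.993), and it turned to -0.39 without mouse 30. The other 8 members lay between -0.55 (Pdcd1) and 0.87 (Maf), with adjusted p from 0.993 to 1.00. No member was above or below every B cell nodule in both populations of other T cells, beside 3.32 and 3.71% of all genes. The medians of the 6 other lists named below ran from -1.004 for proliferation to 0.31 for other helper fates in this comparison, with no gene of theirs called in edgeR. These 3 comparisons share populations, so their values for a gene are not independent of each other.

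**Figure D3:**
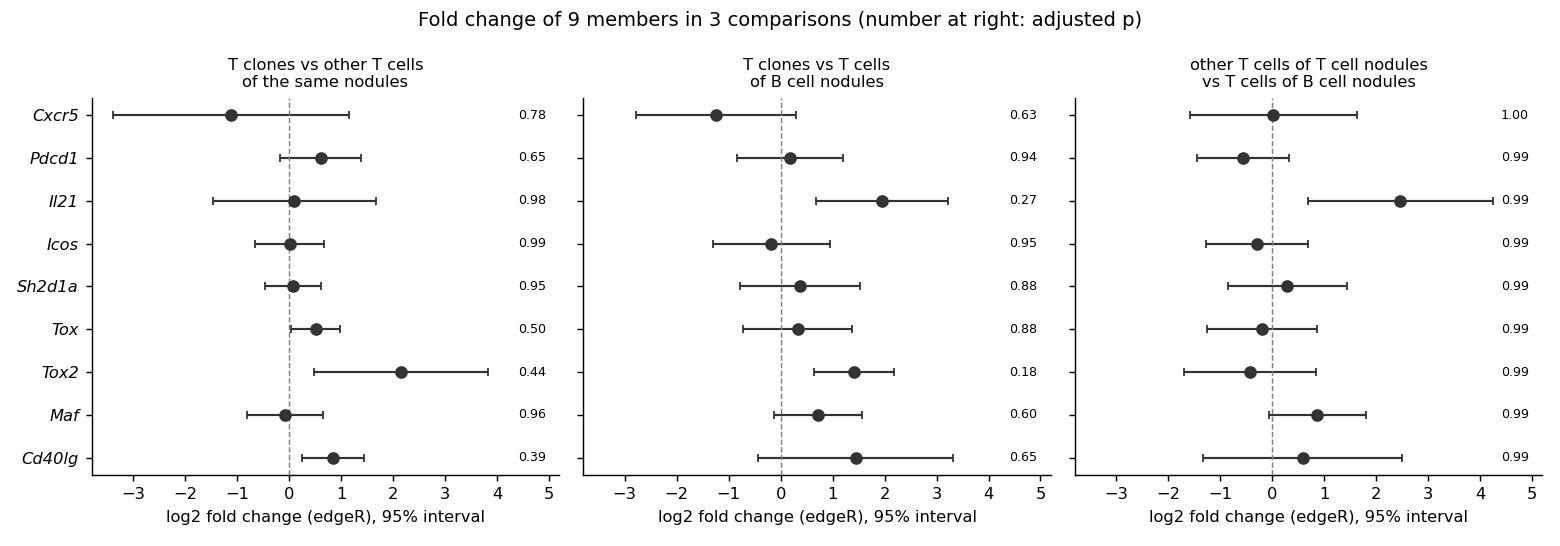
Log2 fold change (x axis) of the 9 members tested in the 3 comparisons, with 95% intervals from edgeR's quasi-likelihood test and the adjusted p at the right of each. Tox2 lies right of 0 in the panels that contain the clones and left of 0 in the third, and no adjusted p is under 0.05.

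Several members were often found in the same cell of a clone. After thinning, 49.8 and 28.3% of the clone cells of mice 30 and 32 had UMIs of 3 or more members, against 31.9 and 8.50% of their other T cells and 10.96 to 24.9% of T cells of B cell nodules. No member at all was seen in 3.59 and 13.7% of clone cells, in 10.6 and 29.1% of other T cells and in 14.2 to 29.5% of T cells of B cell nodules. Tox2 and Cd40lg were found together in 3.99 and 3.94% of clone cells, 1.33 and 0% of other T cells, and 0 to 0.90% of T cells of B cell nodules. The clones were thus alike for the Tox2 and Cd40lg pair but unlike for the number of members per cell. Each of Tox2 and Cd40lg alone was also seen in nearly equal shares of the cells of both clones. Joint shares rise with the shares of the single genes, and no share expected from these was computed. Co-detection beyond the single genes was therefore not tested.

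**Figure D4:**
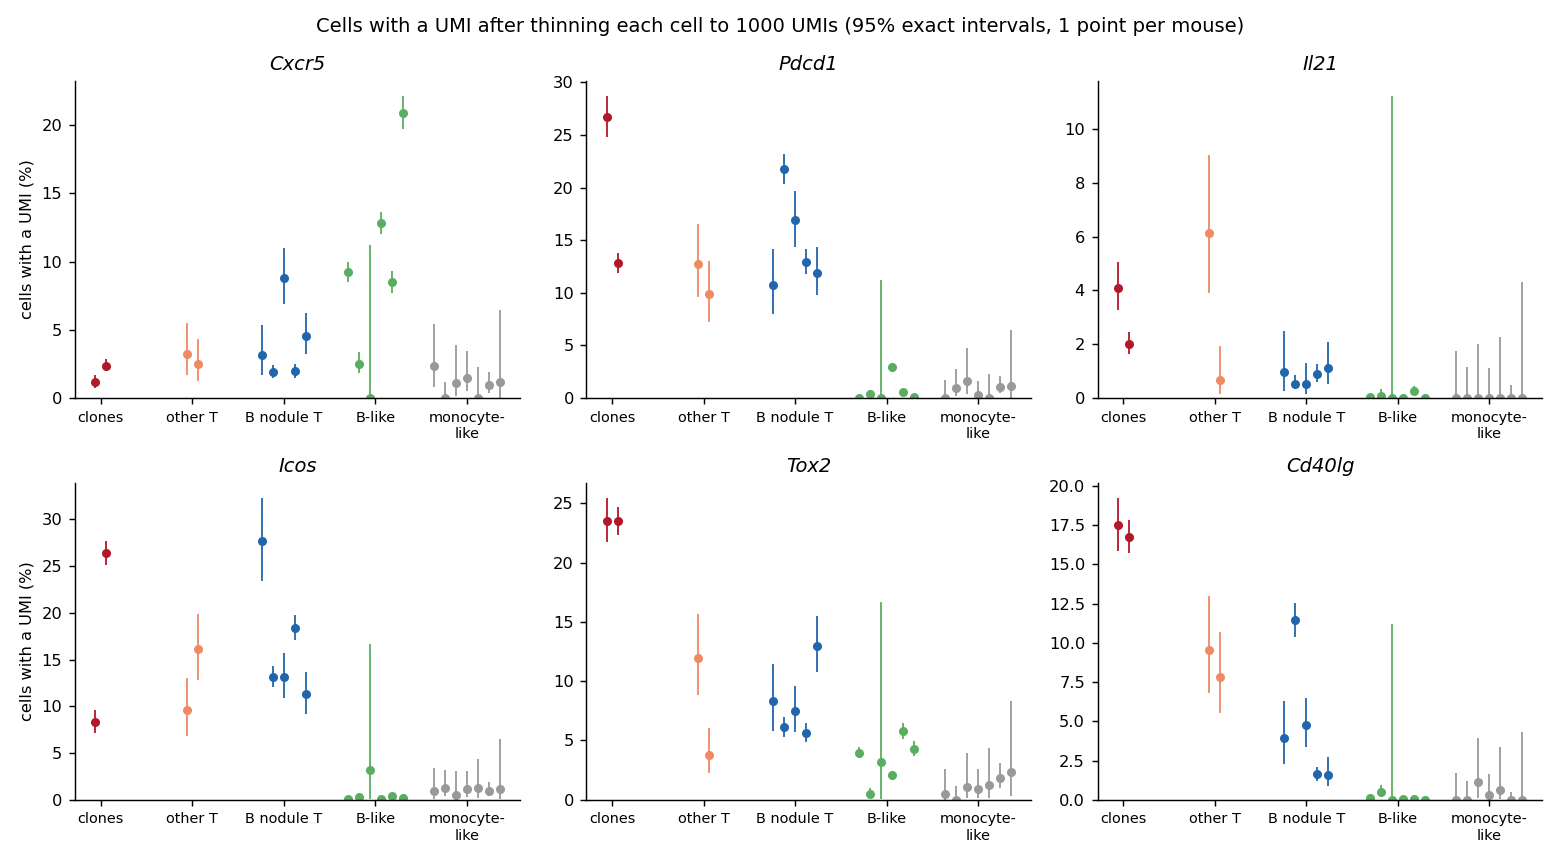
Share of cells with a UMI (percent, y axes start at 0) of Cxcr5, Pdcd1, Il21, Icos, Tox2 and Cd40lg after thinning each cell to 1000 UMIs, in the 3 kinds of T cell and in B-like and monocyte-like cells, 1 point per mouse with exact 95% intervals. The clones lie at 23.6 and 23.5% for Tox2 and 17.5 and 16.8% for Cd40lg, above the other points, whereas for Cxcr5 the B-like cells are highest, up to 20.9%.

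Clusters were built without the 10 genes. The clone of mouse 30 fell into cluster 4 (58.2% of its cells) and cluster 11 (40.0%), and the clone of mouse 32 into cluster 0 (92.9%), while other T cells and T cells of B cell nodules were mostly in clusters 1, 2 and 14. Cluster 1 held the T cells of B cell nodules with the higher Cd40lg, at 182, 84.9, 57.3 and 60.4 CPM in mice 29, 31, 33 and 34, against 14.4, 20.7, 6.21 and 5.25 CPM in cluster 2 of the same mice. Pdcd1 divided the same way, at 312, 308, 375 and 167 CPM in cluster 1 against 158, 104, 104 and 103 CPM in cluster 2. Tox2 stood at 107, 135, 103 and 217 CPM in cluster 1 against 25.8, 52.5, 55.1 and 149 CPM in cluster 2. In all 4 mice cluster 1 was the higher for the 3 genes, and the Tox2 of cluster 1 stayed below that of both clones. Icos and Il21 were also higher in cluster 1 in these mice, but counting error covered part of this. The counting intervals overlapped in mice 29, 31 and 33 for Icos and in mice 31 and 33 for Il21. In mouse 31 there were 5 against 4 Il21 UMIs. Tox and Maf differed in direction between mice. Cxcr5 was lower in cluster 1 in mice 29, 31 and 33 only. Sh2d1a was lower there in all 4, at 165, 338, 67.1 and 232 CPM against 198, 402, 268 and 349 CPM. Its counting intervals overlapped in mice 29 and 31. Over the B cell nodules, cluster 2 held Cd8a at 137 CPM and Gzmk at 821 CPM, against 2.56 and 10.8 CPM in cluster 1.

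Among 20 other TFH regulators, 19 were tested against the other T cells of the same nodules and 20 against the B cell nodules. None passed in edgeR with all reference T cells and the filter on low counts, while without the filter Cd28 was lower in the clones in the first and Pou2af1 in the second. In the first 6 of 19 had an unadjusted p under 0.05 and in the second 5 of 20, beside 9.04 and 9.79% of all genes. DESeq2 called 1 and 2, all lower in the clones, beside 243 of 11550 and 405 of 12880 genes in either direction. The log2 fold change was above 0 for 8 of 19 in the first (median -0.20) and for 11 of 20 in the second (median 0.07). Over all genes the median was 0.04 in the first and 0.01 in the second. Of the 3 most abundant, Tigit, an inhibitory receptor, stood at 864 and 456 CPM in the clones, 431 and 301 CPM in the other T cells and 262 to 435 CPM in T cells of B cell nodules, with a log2 fold change of 0.64 (adjusted p = 0.509) in the first comparison and 0.80 (adjusted p = 0.463) in the second. Both clones were thus above every B cell nodule for Tigit. Batf, an AP-1 factor needed for TFH formation, stood at 368 and 287 CPM in the clones and 181 to 310 CPM in the B cell nodules, and Stat3, which transmits IL-6 and IL-21 signals, at 322 and 196 CPM against 169 to 529 CPM.

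Bcl6, the central TFH repressor, is given although it fell outside the rule for naming genes and was chosen after its values were seen. It stood at 165 and 84.6 CPM in the clones, 103 and 74.7 CPM in the other T cells and 33.1, 97.6, 130, 22.6 and 32.9 CPM in T cells of B cell nodules. The clone of mouse 32 overlapped the B cell nodules, and the log2 fold change was 0.27 (adjusted p = 0.831) against the other T cells and 0.84 (adjusted p = 0.759) against the B cell nodules.

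All 14 genes that oppose the TFH fate were tested in each comparison. None passed in edgeR with all reference T cells and the filter. At an unadjusted p under 0.05 there were 7 in the first and 3 in the second, beside 9.04 and 9.79% of all genes. DESeq2 called 3 and 2 lower. Selplg was lower in the clones than in Cd4-gated other T cells (-2.70, adjusted p = 0.00130). Without the filter, genes lower in the clones in the first comparison included Prdm1 and Selplg, and those in the second were Ccr7 and Selplg. Ccr7 was also lower in the second when mouse 29 was left out. The median log2 fold change was -0.86 against the other T cells, with 1 of 14 above 0, and -1.01 against the B cell nodules, with 4 of 14 above 0. Id2, an inhibitor of E proteins, stood at 520 and 135 CPM in the clones, 366 and 431 CPM in the other T cells and 242 to 964 CPM in the B cell nodules. Klf2, which restrains follicular homing, stood at 41.5 and 541 CPM in the clones, 92.6 and 709 CPM in the other T cells and 225 to 1359 CPM in the B cell nodules. Il7r, the IL-7 receptor chain of resting T cells, stood at 378 and 188 CPM in the clones, 513 and 543 CPM in the other T cells and 304 to 851 CPM in the B cell nodules. These 3 genes were not uniformly low in the clones, since Id2 was higher in the clone of mouse 30 than in its other T cells.

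Among 14 genes of other helper fates, 11 were tested against the other T cells and 13 against the B cell nodules. None passed in edgeR with all reference T cells and the filter. At an unadjusted p under 0.05 there were 5 and 3, beside 9.04 and 9.79% of all genes. DESeq2 called 1 higher and 1 lower in the first and none in the second. The medians were -0.60 and -0.10. The most abundant were Ikzf2, a factor of regulatory and activated T cells, at 1635 and 251 CPM in the clones and 923 and 413 CPM in the other T cells, Ctla4, an inhibitory receptor, at 258 and 263 CPM against 344 and 363 CPM, and Ifng, the Th1 cytokine, at 12.0 and 219 CPM against 500 and 265 CPM. Of the 9 populations, that clone of mouse 30 held the least Ifng. Il4, which TFH and Th2 cells make, was chosen after its values were seen and stood at 229 and 176 CPM in the clones, 63.1 and 67.9 CPM in the other T cells and 1.66, 27.4, 91.4, 6.44 and 2.35 CPM in T cells of B cell nodules. Both clones lay above all 7 other populations for Il4, with log2 fold changes of 1.45 (adjusted p = 0.220) and 2.88 (adjusted p = 0.460). Against the other T cells Il4 passed with the Cd4 gate (adjusted p = 0.0154), under DESeq2 (adjusted p = 0.0292) and without the filter (adjusted p = 0.0191). Without the filter Il4 and Il13 were higher in both comparisons, and Ifng was lower than in the B cell nodules without mouse 32.

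A further pair of lists, of cytotoxic or CD8 genes and of proliferation genes, was compared in the same way. The fitted log2 fold change was below 0 for all 8 cytotoxic or CD8 genes in both comparisons, with median log2 fold changes of -4.82 against the other T cells and -4.25 against the B cell nodules, and in the latter comparison Cd8b1 (-7.01, adjusted p = 0.0262) and Eomes (-7.37, adjusted p = 0.0263) fell. Both calls were lost without mouse 27 (adjusted p = 0.0687 for both), 31 (0.0538 for both), 32 (0.114 and 0.105), 33 (0.0637 for both) or 34 (0.0811 for both), and that of Eomes with Cd4-gated cells (adjusted p = 0.0715). Prf1, which encodes perforin, was higher in the clone than in its other T cells in mouse 30 (55.7 against 19.3 CPM) and lower in mouse 32 (1.91 against 41.0 CPM). Against the other T cells none of the 8 passed in edgeR with all reference T cells and the filter. There were 6 at an unadjusted p under 0.05, beside 9.04% of all genes, and 6 lower under DESeq2. With Cd4-gated cells Eomes (-6.27), Gzma (-3.12) and Nkg7 (-3.34) were lower, and without the filter 6 of the 8 were. Of 10 proliferation genes none passed in edgeR or DESeq2. An unadjusted p under 0.05 was reached by 1 against the other T cells (9.04% of all genes) and 0 against the B cell nodules (9.79%). Log2 fold changes were positive for 10 against the other T cells (median 0.69) and for 1 against the B cell nodules (median -0.52). With clone cells of T-like clusters only, they were positive for 5 (median 0.01) and 0 (median -1.35). When T cells were taken by marker UMIs, 7 were positive against the other T cells (median 0.08). The most abundant were Mki67 at 125 and 185 CPM in the clones, 92.6 and 67.3 CPM in the other T cells and 33.5 to 209.5 CPM in T cells of B cell nodules, Top2a at 76.7 and 125, 140 and 34.9, and 29.97 to 231 CPM, and Ube2c at 27.8 and 47.6, 19.3 and 11.02, and 7.31 to 153 CPM. Their part in the levels of the members was not tested.

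Genes for the B cell partners of the members, such as Cd40, Icosl and the PD-1 ligand gene Cd274, are in part carried by T cells too. Of 11 such genes, 9 were tested against the other T cells and 11 against the B cell nodules. None passed in edgeR with all reference T cells and the filter. At an unadjusted p under 0.05 there were 3 and 1, beside 9.04 and 9.79% of all genes. DESeq2 called 1 higher and 0. Without the filter Cd80 was higher in the clones than in the other T cells, and without mouse 30 Cd86 was higher than in the B cell nodules. The medians were -0.55 and 0.16. Cd274 stood at 175 and 212 CPM in the clones, 263 and 244 CPM in the other T cells and 95.4 to 236 CPM in T cells of B cell nodules. Cd84, a SLAM family receptor, stood at 212 and 149, 208 and 100.98, and 65.4 to 173 CPM, and Il21r at 47.4 and 35.4, 79.4 and 125, and 47.7 to 203 CPM. The list shares Il21r, the IL-21 receptor, with the TFH regulators.

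The genes whose pattern over the 9 populations was most like that of a member are given as a description, since populations share libraries and mice. Among 6243 genes, the highest Pearson r of log2(CPM + 10) was with Exoc3 (0.97), AI504432 (0.94) and Dcp1b (0.91) for Cxcr5, with Papolg (0.95), Ahi1 (0.93) and Ddx24 (0.91) for Pdcd1, and with Sars (0.94), Cdca7l (0.94) and Gm10076 (0.93) for Il21. Among the members themselves Tox and Pdcd1 were most alike (r = 0.90), followed by Maf and Cd40lg (r = 0.87), and Tox and Icos ran most opposite (r = -0.71).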

How the data were processed

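The deposited files were 7 single-cell RNA matrices, whose values are unscaled UMI counts, as the authors' pipeline wrote them for each gene in each cell, and 7 V(D)J tables, which hold UMI and read counts per receptor contig with the authors' clonotypes. The genome was GRCm38 (mm10) per the submitters' processing notes. The aligner for RNA is not given in the sources used here. Gene positions come from the RefSeq annotation of GRCm38.p6, matched by symbol (10 of 10).

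The study's stated quality limits (at least 201 UMIs, at least 101 genes, at most 10% mitochondrial UMIs) kept 75503 of 77442 cells, with 19254544 to 122550206 UMIs per library. Cells were clustered on 2000 variable genes and 30 components without the 10 members (Leiden, leidenalg 0.10.2, resolution 1.0, 32 clusters), and a cluster was named from marker genes. Clone cells shared the CDR3 nucleotides of the largest clonotype. Other T cells were T-like with a called receptor outside the clone and outside the largest clonotype, and T cells of B cell nodules were T-like by cluster alone, with no receptor required. No doublet caller was run. An alternative leaves out cells with B cell UMIs.

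UMI counts were summed per mouse and population and fitted across all genes with edgeR 4.0.16 (TMM, filterByExpr, glmQLFit and glmQLFTest, Benjamini-Hochberg over all genes, R 4.3.3). DESeq2 1.42.0 was an alternative. The fit was tested on simulated data. Samples are separate mice. Counts carry depth, so shares were taken after thinning to 1000 UMIs, which left out 103 and 21 clone cells, 18 and 2 other T cells and 69 to 1771 T cells per B cell nodule. Python 3.11.15 with numpy 2.4.6, scipy 1.17.1 and pandas 2.3.3 was used.

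The members and all gene lists were chosen with earlier results of these data known. Beyond the members, the text names the genes of each list that pass an adjusted p of 0.05 in edgeR, or otherwise the 3 with the highest mean CPM, and the 3 genes most correlated with Cxcr5, Pdcd1 and Il21 among those with at least 20 CPM.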

Additional observations from a re-analysis of the deposited data

Results flagged for a closer look

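Cxcr5, Il21 and Maf moved in opposite directions in the T cell nodules when a clone was set against its own neighbors, and the difference between the mice was not tested, since each mouse has 1 clone and 1 population of other T cells. Cxcr5 had a log2 ratio of clone over other T cells of -2.53 in mouse 30 and 0.64 in mouse 32. Il21 had -0.74 in mouse 30 and 1.53 in mouse 32. Maf had -0.37 in mouse 30 and 0.51 in mouse 32. In all 3 genes the other T cells of mouse 30 held more than those of mouse 32, while the clones of the mice differed in no common direction. Relative to the median gene of each mouse the ratios were -2.66 and 0.42 for Cxcr5, -0.87 and 1.31 for Il21, and -0.50 and 0.29 for Maf. No member had a single B cell nodule far from the other 4 by Dixon's test at its 95% critical value.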

How the results depend on the processing

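With 2 T cell nodules the calls over all genes moved with the tool and filter, and the cause was not tested. Clones against other T cells gave 0 calls in edgeR, 243 in DESeq2, 313 without the filter on low counts, 122 with Cd4-gated reference cells and, in an alternative chosen after seeing the data, 25 when other T cells were defined by the clone family alone. Without the replicate block for mouse it gave 0, and no paired call of a member was lost by it, there being none. Leaving out a mouse leaves 1 library per side there, so such values carry no test. Clones against B cell nodules gave 36 calls, 405 in DESeq2, 538 without the filter, 7 with Cd4-gated cells, and 0 to 124 when 1 mouse was left out (0 without mouse 27, 31, 33 or 34, 5 without mouse 32, 97 without mouse 29 and 124 without mouse 30). Other T cells against B cell nodules gave 0 calls, 4 in DESeq2, 1 without the filter and 0 to 5 when 1 mouse was left out (5 without mouse 29 and 1 without mouse 30).

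Of the members' log2 fold changes, 87 values against the other T cells were unchanged, 126 against the B cell nodules and 115 in the third comparison, and 12, 6 and 11 reversed. Unchanged means the same direction and call. Ratios of a single mouse against the other T cells carry no test. They count as unchanged when close to the fitted value, and 7 of them moved further. Another 2 values against the other T cells and 3 against the B cell nodules gained a call. Against the other T cells, Il21 reversed to -0.33 with Cd4-gated cells and -0.54 without the block and ran from -0.74 to 1.53 between mice. Icos reversed to -0.010 in DESeq2, to -0.012 with RLE size factors and to -0.047 with the family-only definition, and ran from -0.12 to 0.44. Maf reversed to 0.14 with Cd4-gated cells, 0.12 with T-like clone cells only (also chosen after seeing the data) and 0.044 when T cells were taken by marker UMIs, and ran from -0.37 to 0.51, and Cxcr5 ran from -2.53 to 0.64. Against the B cell nodules, Icos reversed to 0.14 with T-like clone cells and, leaving out 1 mouse, ran from -1.18 to 0.40, Pdcd1 from -0.57 to 0.68, Sh2d1a from -1.005 to 1.06 and Tox from -0.49 to 0.85, the lowest of these last 3 each without mouse 30. In the third comparison Cxcr5 reversed to -0.018 without the filter and ran from -1.26 to 0.72, Il21 from -0.39 to 3.39, Icos from -0.95 to 0.15, Sh2d1a from -1.13 to 1.01, Tox from -1.02 to 0.33 and Tox2 from -1.88 to 0.31.

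Summed member levels (means of 3221, 2304 and 2106 CPM in clones, other T cells and T cells of B cell nodules) moved by less than the spread under each alternative run. Shares moved with depth. Cells with 3 or more members averaged 39.0, 20.2 and 18.3% in that order after thinning to 1000 UMIs, 71.6, 48.6 and 39.9% at 2000 and 79.3, 54.1 and 41.7% unthinned. Cells with both Cxcr5 and Pdcd1 averaged 0.28, 0.24 and 0.66%, with 1.27 and 2.02% at 2000 and 4.18, 3.41 and 2.59% unthinned, so the order of this pair follows the thinning. Depth limits Ascl2 and the Cxcr5 and Pdcd1 pair.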

Other observations

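Clone cells with 3 or more UMIs of the proliferation genes held more Il21 than clone cells with none in mouse 30, at 123 CPM (95.7 to 157, 61 cells) against 56.7 CPM (49.4 to 64.8, 1738 cells). In mouse 32 the values were 32.04 CPM (25.5 to 39.8, 307 cells) and 25.3 CPM (22.3 to 28.6, 2654 cells), whose counting intervals overlap. Cd40lg ran the other way, at 107 CPM against 215 CPM in mouse 30 and 160 CPM against 228 CPM in mouse 32. Tox2 stood at 291 and 303 CPM in mouse 30 and at 396 and 376 CPM in mouse 32. The cells with proliferation UMIs were deeper, with a median of 8325 UMIs against 1897.5 in mouse 30 and 6931 against 3310.5 in mouse 32, and cells of 1 clone are not replicates.

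In the other T cells of mouse 30, clonotype 2 (38 cells) held 18 Il21 UMIs, or 202 CPM, from 7 cells with at most 4 in 1 cell. Clonotype 5 (16 cells) held 26, or 284 CPM, of which 25 came from 1 cell.

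The expanded B cells of the B cell nodules were measured for the partners of the members (1766, 295, 3960, 1078 and 1394 cells in mice 27, 29, 31, 33 and 34). Cd40, the receptor of CD40 ligand, stood at 52.3, 32.4, 18.9, 89.3 and 83.4 CPM, and Il21r at 160, 48.1, 102, 71.6 and 105 CPM. Icosl stood at 17.4, 3.13, 2.77, 0.97 and 35.8 CPM, and was lowest in mice 29, 31 and 33. Cxcl13, the ligand of CXCR5, was below 1.00 CPM in all 5, and Cxcr5 itself stood at 92.5, 21.0, 155, 73.9 and 176 CPM in these cells.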
